A study of Arabidopsis thaliana with 14 samples.

Results

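Aquaporins are channel proteins that let water, and in some members small uncharged solutes, cross cell membranes. In plants they fall into plasma membrane intrinsic proteins (PIPs), tonoplast intrinsic proteins (TIPs) of the vacuole membrane, nodulin 26-like intrinsic proteins (NIPs), several of which carry boric acid or arsenite, and small basic intrinsic proteins (SIPs) of the endoplasmic reticulum. PIP2 proteins are strong water channels, PIP1 proteins often reach the plasma membrane in complexes with them, and root and leaf water flow depends in part on both. All 35 aquaporin genes of Arabidopsis thaliana were followed here, taken by locus: 13 PIP, 10 TIP, 9 NIP and 3 SIP genes among 25433 genes with a probe on the array. All 35 had a probe, 80 probes in all, and 29 of the genes gave enough signal to be tested.

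RNA came from whole seedlings, either wild-type Col-0 or Col-0 carrying 35S:YFP-AFL1. At the age of 7 days they were put on new control medium or on medium with polyethylene glycol at -1.2 MPa, and they were harvested 10 h later. The 35S promoter drives expression in most tissues, the transgene codes for AFL1 (At14a-like 1) fused to yellow fluorescent protein, and the labels do not give the number of transgenic lines. Each treatment had 4 wild-type and 3 35S:YFP-AFL1 arrays, each hybridised with 1 sample. Whether replicates are separate cultures is not labelled, so p-values measure only the spread among these samples, and that spread may be technical.

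The 75th percentile of the processed signal ran from 796.2 to 1591, between 59.5% and 67.0% of probes were well above background, 0 spots were saturated, and arrays of a group correlated at 0.936 to 0.989. Outlier spots numbered 20 to 967 per array, the most on the 2 wild-type controls of slide 1 and the fewest on the 4 arrays of slide 5. Slides did not carry the groups evenly. All 35S:YFP-AFL1 controls were on slide 4 next to replicate 1 of the wild-type controls, and all stressed 35S:YFP-AFL1 arrays were on slide 5 next to replicate 1 of stressed wild type. The other 6 wild-type arrays were on slides 1 to 3. Among the 29 tested aquaporin genes, stressed wild-type replicate 1 lay nearer to the stressed 35S:YFP-AFL1 mean than to the mean of the other 3 stressed wild-type arrays in 21, and control replicate 1 lay nearer to the 35S:YFP-AFL1 control mean in 18. Shares over all tested genes were not counted, so these counts do not set aquaporin genes apart from the rest. The AFL1 gene itself was higher in the 35S:YFP-AFL1 line by 2.41 ± 0.26 (SE, adjusted p = 0.00453) under control conditions. At low water potential, where AFL1 also rose in wild type by 3.73, the line differed from wild type by 0.32 (adjusted p = 0.526).

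Values below are log2 of a probe's signal relative to the 75th percentile of its array, so 0 is the level of that percentile, and a log2 fold change of 1 doubles the signal. Probes of different genes are not set against each other. Tests are limma's moderated tests from a single fit over 18307 genes, and a gene counts as called where the Benjamini-Hochberg adjusted p over all of them is under 0.05. Replicate values are given in the order of the replicate numbers.

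The first question was how aquaporin transcripts of wild type responded to low water potential. Most that changed fell: 15 of the 29 tested genes were called lower and 3 higher, where 64.1% of all tested genes were called, 33.4% lower and 30.7% higher. The median log2 fold change of the 29 was -0.78, against -0.032 over all tested genes. The lowest log2 fold changes were those of 2 vacuolar channels of the TIP2 group, at -4.45 and -3.5, and of the plasma membrane channel PIP1;5, at -3.3, while PIP2;5, TIP4;1 and SIP2;1 rose. Without stressed wild-type replicate 1, 5 rose, as PIP1;1 and NIP1;1 joined the 3. Median centring of each array gave 6 higher and 14 lower. With the slide as a fixed block, 20 were called, 7 higher and 13 lower, of which 15 were among the 18, and the count over all genes went from 11737 to 8709. That fit takes the stress response from slide 2 alone, with 1 array of each treatment, and assumes that a lone array varies like the rest. In RNA of whole seedlings, fewer cells of a type and less RNA per cell cannot be told apart. Leaf and stomatal genes moved along: 10 of 11 tested shoot markers fell in wild type (median -1.07), led by the leaf carbonic anhydrase CA1 at -3.11, and their summed level ran from 275.6 to 402.1 on stressed arrays against 721.7 to 819.0 on control arrays. Their part in the falls of aquaporin transcripts was not tested. Of 15 tested root markers 5 fell, the lowest being the phosphate exporter PHO1 at -1.18, and 1 rose, the root hair gene COBL9 at 0.59.

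In the 35S:YFP-AFL1 line, 17 of the 29 genes fell and 5 rose, against 63.3% of all tested genes called, 33.3% lower and 30.1% higher, and the median of the 29 was -0.81. All 15 genes that fell in wild type also fell here, and 12 of these 15 had the lower log2 fold change in the 35S:YFP-AFL1 line. The matching share over all genes was not counted. Called changes of at least 2-fold were also more frequent over all tested genes in the line, with 6856 against 6149 for wild type. The difference of responses was called for 0 of the 29 aquaporin genes, so the 12 of 15 does not show a stronger aquaporin response. For the stress response of the line, median centring gave 9 of the 29 higher and 14 lower. The fixed slide block left 13 called, 3 higher and 10 lower, of which 12 were among the 22, and took the count over all genes from 11592 to 6565. Slide and treatment cannot be told apart within the 35S:YFP-AFL1 arrays, and that fit reaches their response only through the same wild-type pair of slide 2. PIP2;5 and SIP2;1 rose in both genotypes. TIP4;1 was called in wild type alone, and 5 genes were called in the 35S:YFP-AFL1 line alone: PIP1;4 and both TIP3 genes rose there, and PIP2;6 and NIP5;1 fell. A call in a single genotype does not show a difference between genotypes, which has its own test further on. The remaining 6 tested genes were called in neither. Of the 11 shoot markers 10 fell here too (median -1.36), and their summed level was 241.6 to 296.5 on stressed arrays and 705.6 to 762.8 on controls.

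**Figure D1:**
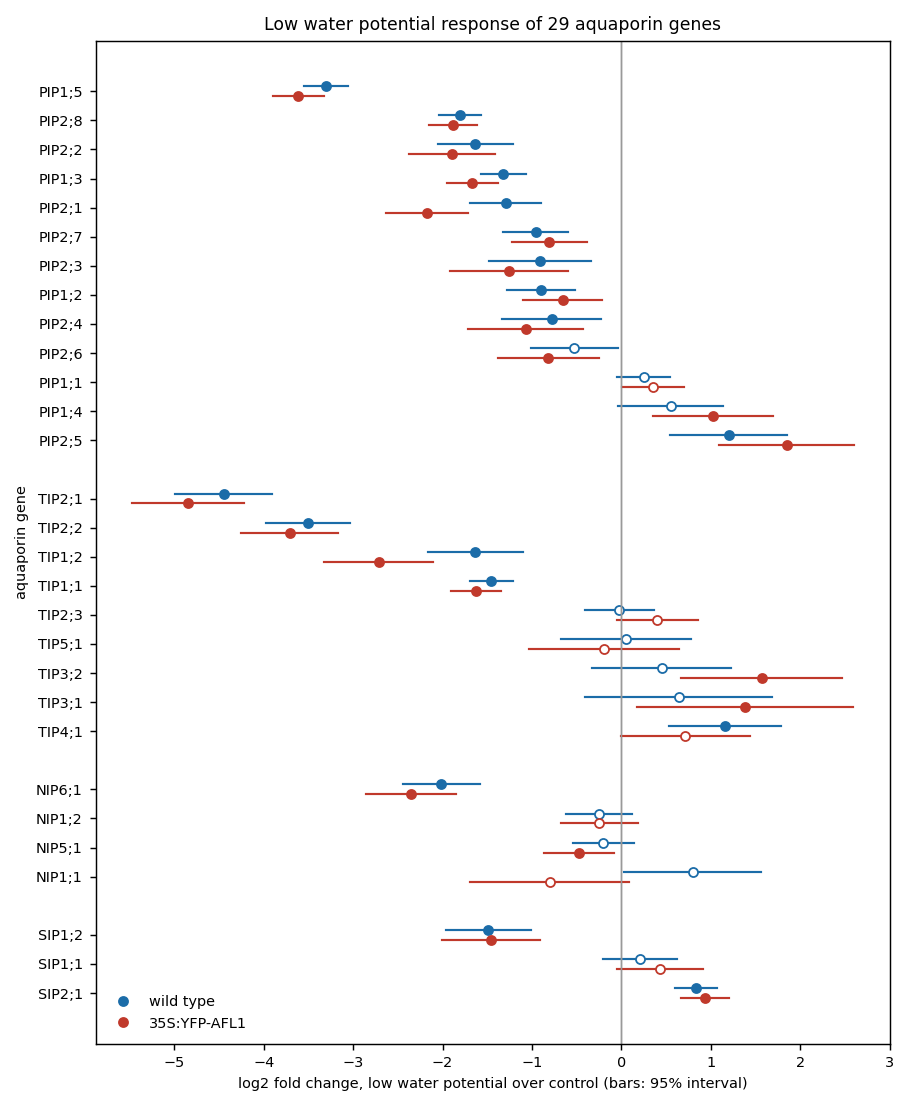
The log2 fold change of each of the 29 tested aquaporin genes (vertical axis, by subfamily) at low water potential over control, with wild type in blue, 35S:YFP-AFL1 in red and 95% intervals from limma. Filled points are called. The lowest values, -4.45 and -4.85, belong to the delta-TIP gene, and the highest, 1.85 in 35S:YFP-AFL1, to PIP2;5.

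By subfamily, the counts stand beside 33.4% lower and 30.7% higher among all tested genes in wild type, with no test between subfamilies. Among the 13 PIP genes 9 fell and 1 rose in wild type (median -0.92), and 10 fell and 2 rose in 35S:YFP-AFL1 (median -1.07). The 9 tested TIP genes split: 4 fell and 1 rose in wild type, and 4 fell and 2 rose in 35S:YFP-AFL1, with medians of -0.024 and -0.19. All 4 that fell were of the TIP1 and TIP2 groups of vegetative vacuoles, and both TIP3 genes, of seed vacuoles, had positive values. Of the 4 tested NIP genes, 1 fell in wild type, while 2 fell in 35S:YFP-AFL1 (medians -0.23 and -0.64). Each genotype had 1 SIP gene that rose and 1 that fell among the 3. In wild type the NIP and SIP shares are near or below those of all genes.

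TIP2;1 (AT3G16240), the delta-TIP of the tonoplast, which passes water and ammonia, read 5.89, 5.68, 5.77 and 5.69 on the wild-type control arrays and 1.23, 0.80, 0.92 and 2.3 on the stressed ones. The 35S:YFP-AFL1 arrays read 5.87, 5.81 and 5.73 in control and 0.85, 1.11 and 0.89 under stress. Every stressed array lay far below every control array, and stressed wild-type replicate 4 stood above the rest of its group. The change was -4.45 ± 0.25 (SE, adjusted p = 5.46e-09) in wild type, a 21.8-fold lower signal, and -4.85 ± 0.29 (SE, adjusted p = 1.06e-08) in 35S:YFP-AFL1. Its relative TIP2;2 (AT4G17340) gave 4.02, 3.97, 4.1 and 3.84 in wild-type control and -0.18, 0.22, 0.86 and 1.01 under stress. Its 35S:YFP-AFL1 arrays gave 3.98, 3.69 and 3.75 and then 0.14, 0.23 and -0.089. Stressed and control arrays did not overlap in either genotype, and the log2 fold changes were -3.5 ± 0.22 (SE, adjusted p = 1.30e-08) in wild type and -3.71 ± 0.25 (SE, adjusted p = 3.32e-08) in 35S:YFP-AFL1. The third gene of the group, TIP2;3 (AT5G47450), codes for an ammonia-permeable channel known from roots. It went from -0.038 ± 0.14 (SD, n = 4) to -0.063 ± 0.36 (SD, n = 4) in wild type and from -0.57 ± 0.29 (SD, n = 3) to -0.17 ± 0.19 (SD, n = 3) in 35S:YFP-AFL1. The log2 fold change was -0.024 (adjusted p = 0.913) in wild type and 0.40 (adjusted p = 0.106) in 35S:YFP-AFL1, called in neither.

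TIP1;2 (AT3G26520), a water and urea channel of vegetative vacuoles, read 6.3, 6.44, 6.38 and 6.47 in wild-type control and 3.92, 5.17, 5.41 and 4.55 at low water potential. The corresponding 35S:YFP-AFL1 values were 6.52, 6.33 and 6.27, then 3.64, 3.69 and 3.65. Control arrays of both genotypes lay together, while the stressed wild-type arrays were spread out, and replicate 1, from the slide of the stressed 35S:YFP-AFL1 arrays, was the lowest of them. The log2 fold change was -1.64 ± 0.25 (SE, adjusted p = 5.97e-05) in wild type and -2.72 ± 0.28 (SE, adjusted p = 2.13e-06) in 35S:YFP-AFL1. TIP1;1 (AT2G36830), the gamma-TIP, an abundant channel of the central vacuole, went from 5.73 ± 0.039 (SD, n = 4) to 4.27 ± 0.19 (SD, n = 4) in wild type and from 5.84 ± 0.10 (SD, n = 3) to 4.21 ± 0.14 (SD, n = 3) in 35S:YFP-AFL1. It fell in both genotypes, and the log2 fold changes were -1.46 ± 0.11 (SE, adjusted p = 9.84e-08) in wild type and -1.62 ± 0.13 (SE, adjusted p = 1.50e-07) in 35S:YFP-AFL1.

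Among PIP1 genes the fall of PIP1;5 (AT4G23400) stood out, with 4.42, 4.05, 4.08 and 4.2 on wild-type control arrays and 0.70, 1.1, 0.89 and 0.85 on stressed ones. The 35S:YFP-AFL1 values went from 4.32, 4.32 and 4.42 to 0.69, 0.69 and 0.85. Replicates lay close together and the treatments did not overlap: the log2 fold change was -3.3 ± 0.11 (SE, adjusted p = 6.11e-11) in wild type, a 9.86-fold lower signal, and -3.61 ± 0.13 (SE, adjusted p = 1.30e-10) in 35S:YFP-AFL1. PIP1;3 (AT1G01620) fell too, from 5.82 ± 0.13 (SD, n = 4) to 4.49 ± 0.20 (SD, n = 4) in wild type and from 5.71 ± 0.059 (SD, n = 3) to 4.05 ± 0.10 (SD, n = 3) in 35S:YFP-AFL1, with log2 fold changes of -1.32 ± 0.12 (SE, adjusted p = 3.88e-07) and -1.67 ± 0.13 (SE, adjusted p = 1.81e-07). PIP1;2 (AT2G45960), which takes part in root water uptake and in CO2 entry into leaves, went from 5.51 ± 0.20 (SD, n = 4) to 4.62 ± 0.41 (SD, n = 4) in wild type and from 5.56 ± 0.10 (SD, n = 3) to 4.9 ± 0.11 (SD, n = 3) in 35S:YFP-AFL1. Its falls were smaller, at -0.90 ± 0.18 (SE, adjusted p = 5.91e-04) and -0.66 ± 0.20 (SE, adjusted p = 0.0127), and the 35S:YFP-AFL1 call was lost with median centring, quantile normalization and the fixed slide block. PIP1;1 (AT3G61430) was not called, with means of 5.09 ± 0.14 (SD, n = 4) and 5.34 ± 0.24 (SD, n = 4) in wild type and log2 fold changes of 0.25 (adjusted p = 0.129) and, in 35S:YFP-AFL1, 0.35 (adjusted p = 0.0683). Alternative settings called it higher in 4 of 31 cases in wild type and 9 of 30 in 35S:YFP-AFL1, and the highest values, 0.76 and 1.12, came from the fixed slide block with its lone pair.

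PIP2;8 (AT2G16850) had the lowest log2 fold change of the PIP2 water channels in wild type. Its values were 0.15, 0.19, 0.24 and 0.18 in wild-type control and -1.49, -1.79, -1.7 and -1.48 under stress. In 35S:YFP-AFL1 they were 0.33, 0.57 and 0.60 and -1.53, -1.36 and -1.28. The treatments were separated by more than 1 log2 unit in both genotypes, with changes of -1.8 ± 0.11 (SE, adjusted p = 9.15e-09) and -1.89 ± 0.12 (SE, adjusted p = 2.65e-08). PIP2;2 (AT2G37170), a root water channel, read 3.9, 3.45, 3.41 and 3.29 in wild-type control against 1.78, 1.94, 1.36 and 2.43 under stress, and 3.75, 3.59 and 3.54 against 1.76, 1.75 and 1.69 in 35S:YFP-AFL1. All stressed arrays were below all control arrays, and the changes were -1.64 ± 0.19 (SE, adjusted p = 6.94e-06) and -1.9 ± 0.22 (SE, adjusted p = 6.89e-06), the latter not called under the fixed slide block (-1.12, adjusted p = 0.179). The next gene in the genome, PIP2;3 (AT2G37180), also known as RD28, is a near-identical copy, and the probes may share signal. It went from -0.20 ± 0.41 (SD, n = 4) to -1.12 ± 0.58 (SD, n = 4) in wild type and from 0.19 ± 0.20 (SD, n = 3) to -1.07 ± 0.12 (SD, n = 3) in 35S:YFP-AFL1. Both were falls, with -0.92 ± 0.26 (SE, adjusted p = 0.00812) and -1.26 ± 0.30 (SE, adjusted p = 0.00271), and the wild-type call was lost under the fixed slide block (-0.74, adjusted p = 0.0697) and within slides 4 and 5.

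A further 3 PIP2 genes fell in both genotypes. PIP2;1 (AT3G53420), a water channel of roots and guard cells phosphorylated by the kinase OST1, went from 5.07 ± 0.25 (SD, n = 4) to 3.77 ± 0.38 (SD, n = 4) in wild type and from 5.39 ± 0.11 (SD, n = 3) to 3.21 ± 0.18 (SD, n = 3) in 35S:YFP-AFL1. The log2 fold changes were -1.29 ± 0.18 (SE, adjusted p = 3.62e-05) and -2.18 ± 0.21 (SE, adjusted p = 1.12e-06), and with the slide as a fixed block the 35S:YFP-AFL1 value was -1.32 (adjusted p = 0.058). PIP2;7 (AT4G35100), the partner of the stress protein TSPO, went from 6.13 ± 0.042 (SD, n = 4) to 5.18 ± 0.27 (SD, n = 4) in wild type and from 5.84 ± 0.35 (SD, n = 3) to 5.03 ± 0.23 (SD, n = 3) in 35S:YFP-AFL1. The log2 fold changes were -0.96 ± 0.17 (SE, adjusted p = 2.35e-04) and -0.81 ± 0.19 (SE, adjusted p = 0.00258), and the fixed slide block took the 35S:YFP-AFL1 value to -0.46 (adjusted p = 0.521). PIP2;4 (AT5G60660), a root channel, changed by -0.78 ± 0.26 (SE, adjusted p = 0.0169) and -1.07 ± 0.30 (SE, adjusted p = 0.00652). Neither call held with the slide as a fixed block (-0.28, adjusted p = 0.567 and -0.67, adjusted p = 0.389). PIP2;6 (AT2G39010), a leaf channel, went from 5.8 ± 0.21 (SD, n = 4) to 5.27 ± 0.32 (SD, n = 4) in wild type and from 5.69 ± 0.31 (SD, n = 3) to 4.87 ± 0.51 (SD, n = 3) in 35S:YFP-AFL1. The change was -0.53 (adjusted p = 0.0539) in wild type, not called, and a fall with -0.82 (adjusted p = 0.0144) in 35S:YFP-AFL1, where the call held in 24 of 30 alternative settings and was lost with the slide as a fixed or a random block.

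In earlier work on Arabidopsis, 2 PIP genes are known to rise under drought when most others fall. The PIP2 gene of the pair, PIP2;5 (AT3G54820), read -1.02, -0.94, -1.16 and -1.67 in wild-type control and 0.81, -0.34, -0.87 and 0.39 at low water potential. In 35S:YFP-AFL1 it read -1.01, -0.79 and -1.38, then 0.65, 0.93 and 0.79. All stressed arrays exceeded all control arrays of their genotype, and stressed wild-type replicate 1 stood with the stressed 35S:YFP-AFL1 arrays. The gene rose by 1.2 ± 0.30 (SE, adjusted p = 0.00355) in wild type, a 2.29-fold higher signal, and by 1.85 ± 0.35 (SE, adjusted p = 4.39e-04) in 35S:YFP-AFL1. Neither was called with the slide as a fixed block (1.33, adjusted p = 0.0557 and 1.35, adjusted p = 0.207).

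The PIP1 gene of the pair, PIP1;4 (AT4G00430), a channel for water, CO2 and hydrogen peroxide, read 4.51, 4.12, 4.03 and 3.94 in wild-type control and 5.45, 4.31, 3.9 and 5.13 under stress. The 35S:YFP-AFL1 arrays read 4.36, 4.48 and 4.36 and 5.44, 5.44 and 5.39. Stressed wild-type replicates 1 and 4 were high, replicates 2 and 3 lay below the highest control, and the 35S:YFP-AFL1 groups did not overlap. The gene rose in 35S:YFP-AFL1 by 1.03 ± 0.31 (SE, adjusted p = 0.0112) and was not called in wild type, at 0.55 ± 0.27 (SE, adjusted p = 0.091). The 35S:YFP-AFL1 call was lost under the fixed slide block (0.45, adjusted p = 0.634). Its 5 kept probes all had positive values but differed in size: 3 were called higher in wild type, and all 5 in 35S:YFP-AFL1. With the mean of all kept probes the gene was called higher in wild type too. The brightest probe stands for the gene. The dimmest, on another transcript model, rose by 3.95 in wild type and by 4.66 in 35S:YFP-AFL1, with adjusted p of 2.05e-07 and 1.82e-07. That probe was well above background on 2 of 4 wild-type and 2 of 3 35S:YFP-AFL1 control arrays.

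The TIP3 genes code for the alpha- and beta-TIP of seed protein storage vacuoles, whose expression in seeds depends on the regulator ABI3. The alpha-TIP gene TIP3;1 (AT1G73190) read -1.59, -2.68, -2.63 and -3.11 in wild-type control and -0.19, -1.96, -2.75 and -2.52 under stress. Its 35S:YFP-AFL1 values were -2.34, -2.52 and -3.16, then -1.2, -1.0 and -1.69. In wild type replicate 1 was the highest of its group in both treatments and the groups overlapped, while the 35S:YFP-AFL1 groups did not overlap. It rose in 35S:YFP-AFL1 by 1.38 ± 0.56 (SE, adjusted p = 0.0452), a call held in 17 of 30 alternative settings, and was not called in wild type, at 0.64 ± 0.48 (SE, adjusted p = 0.263). The beta-TIP gene TIP3;2 (AT1G17810) read -2.21, -3.25, -3.47 and -3.81 in wild-type control against -1.96, -2.54, -3.22 and -3.23 under stress, and -3.56, -3.78 and -4.47 against -2.23, -2.12 and -2.76 in 35S:YFP-AFL1. Again wild-type replicate 1 was highest in both treatments and only the 35S:YFP-AFL1 groups were separate. The beta-TIP gene rose by 1.57 ± 0.42 (SE, adjusted p = 0.00513) in 35S:YFP-AFL1 and had 0.45 ± 0.36 (SE, adjusted p = 0.295) in wild type. In wild type each TIP3 gene was called higher in 3 alternative settings, the fixed slide block and scan day 1 alone among them, both of which have a single stressed wild-type array to go by. For the beta-TIP gene the difference of responses, 35S:YFP-AFL1 minus wild type, was 1.12 (95% interval -0.073 to 2.31, adjusted p = 0.535).

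Other genes of the seed programme were few on these arrays: 7 of 13 were tested, and the 6 storage albumin and cruciferin genes were not. In wild type 3 of the 7 rose and 1 fell (median 0.48), and in 35S:YFP-AFL1 5 rose and 1 fell (median 0.91), where 30.7% and 30.1% of all tested genes rose. The late embryogenesis gene EM6 rose by 4.78 and 5.19, and the oleosin gene OLEO4 fell, at -1.88 in wild type, with 1 of 4 stressed arrays well above background, and at least 2.31-fold in 35S:YFP-AFL1, with none (adjusted p = 0.0388). ABI3 had 0.24 (adjusted p = 0.513) in wild type and rose by 0.91 (adjusted p = 0.0421) in 35S:YFP-AFL1.

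TIP4;1 (AT2G25810), a tonoplast channel of roots, read -4.05, -2.6, -3.2 and -3.6 in wild-type control and -2.54, -2.38, -1.93 and -1.98 at low water potential. In 35S:YFP-AFL1 it read -4.4, -4.81 and -4.63, and then -3.31, -4.15 and -4.23. It was not well above background on any 35S:YFP-AFL1 control array and on only 1 of the 3 stressed ones, so its control level there is a bound. It rose in wild type by 1.15 ± 0.29 (SE, adjusted p = 0.00339), with no overlap of the treatments. The response of 35S:YFP-AFL1, at least 1.01-fold by that bound, was not called (0.72 (adjusted p = 0.077)). TIP5;1 (AT3G47440), known from pollen, was not called. It had means of -0.60 ± 0.80 (SD, n = 4) and -0.55 ± 0.43 (SD, n = 4) in wild type and of -0.13 ± 0.22 (SD, n = 3) and -0.32 ± 0.33 (SD, n = 3) in 35S:YFP-AFL1, and changes of 0.050 (adjusted p = 0.905) and -0.19 (adjusted p = 0.681).

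SIP2;1 (AT3G56950), of the endoplasmic reticulum, read 0.33, 0.67, 0.60 and 0.42 in wild-type control and 1.13, 1.34, 1.4 and 1.5 under stress. The 35S:YFP-AFL1 values were 0.43, 0.51 and 0.44 and 1.36, 1.43 and 1.4. Treatments were apart in both genotypes, and the rise was 0.84 ± 0.11 (SE, adjusted p = 1.61e-05) in wild type and 0.94 ± 0.13 (SE, adjusted p = 2.23e-05) in 35S:YFP-AFL1, the call held in every alternative setting. SIP1;2 (AT5G18290), a water channel of the same membrane, went the other way, from -1.37, -0.58, -0.88 and -1.25 to -1.96, -2.96, -2.76 and -2.35 in wild type and from -1.13, -1.38 and -1.06 to -2.47, -2.64 and -2.84 in 35S:YFP-AFL1. The stressed arrays were below the controls in both genotypes, with changes of -1.49 ± 0.22 (SE, adjusted p = 5.48e-05) and -1.46 ± 0.26 (SE, adjusted p = 2.32e-04). Between the lone wild-type arrays of slides 4 and 5 the difference was -0.59, with slide and treatment not separable. SIP1;1 (AT3G04090), the third of the family, went from 1.82 ± 0.23 (SD, n = 4) to 2.03 ± 0.44 (SD, n = 4) in wild type and was not called, at 0.20 (adjusted p = 0.37) and 0.43 (adjusted p = 0.104), although its second probe rose by 0.50 in wild type (adjusted p = 7.80e-04).

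Among NIP genes the boric acid channels were the ones that fell. NIP6;1 (AT1G80760), which moves boric acid in shoot nodes, read 0.93, 0.32, 0.13 and 0.17 in wild-type control and -1.59, -1.65, -2.01 and -1.26 under stress. In 35S:YFP-AFL1 the values were 0.96, 1.33 and 1.0 and -1.4, -1.37 and -1.01. The treatments did not overlap, wild-type control replicate 1 stood with the 35S:YFP-AFL1 controls of its slide, and the changes were -2.01 ± 0.20 (SE, adjusted p = 1.26e-06) and -2.35 ± 0.23 (SE, adjusted p = 1.19e-06). NIP5;1 (AT4G10380), the root boric acid channel, went from -0.86 ± 0.17 (SD, n = 4) to -1.06 ± 0.23 (SD, n = 4) in wild type and from -1.23 ± 0.23 (SD, n = 3) to -1.7 ± 0.25 (SD, n = 3) in 35S:YFP-AFL1. It fell in 35S:YFP-AFL1, with -0.48 (adjusted p = 0.0347) and a call in 19 of 30 alternative settings, and had -0.20 (adjusted p = 0.277) in wild type. Of 7 borate exporter genes of the BOR family 3 were tested, of which 2 fell in wild type, while 1 fell in 35S:YFP-AFL1, beside 33.4% and 33.3% of all tested genes, with BOR1, which loads boron into the xylem, at -1.3 and -1.67. NIP1;2 (AT4G18910) went from -3.26 ± 0.23 (SD, n = 4) to -3.51 ± 0.33 (SD, n = 4) in wild type and was not called, at -0.25 (adjusted p = 0.217) and -0.25 (adjusted p = 0.291).

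**Figure D2:**
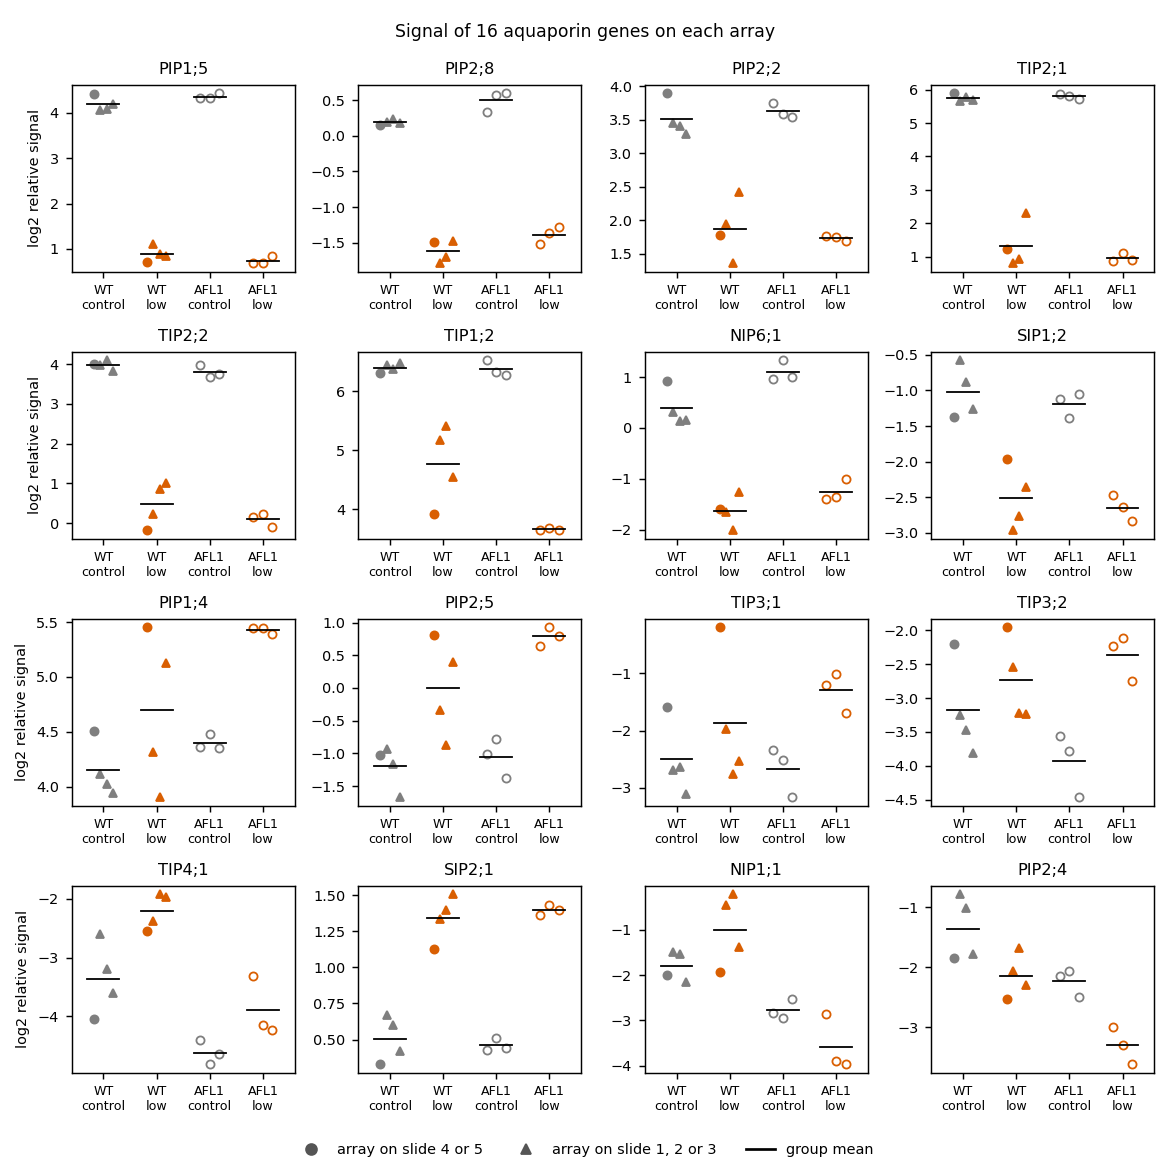
Log2 relative signal (vertical axis of each panel) of 16 aquaporin genes on the 14 arrays in 4 groups (WT, wild type, AFL1, 35S:YFP-AFL1, and low, low water potential). Filled symbols are wild type, circles are arrays on slides 4 and 5, triangles arrays on slides 1 to 3, and lines are group means. The PIP1;5, delta-TIP and TIP2;2 panels separate the treatments widely in both genotypes. In several panels, such as that of PIP1;4, the stressed wild-type circle lies with the stressed 35S:YFP-AFL1 arrays.

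Several probes were kept for 14 of the tested genes, which allowed the response to be read more than once. No gene had probes called in opposite directions in either genotype. The other probes of a gene often changed more than the brightest one: in wild type their median change was larger in 11 of the 14 genes. The brightest probe had a negative value in 11 genes, not all the same ones. Over those, the median was -1.68 for the other probes against -1.32 for the brightest, and the other probes changed more in 8. TIP1;2 showed this most plainly, with -1.64 for the brightest probe and -2.68, -2.54, -2.76 and -2.57 for the others. TIP2;2 went the other way, with -3.5 for the brightest and -2.68 to -2.77 for the rest. For PIP2;6, not called in wild type by its brightest probe, the other 4 probes all fell, with log2 fold changes of -0.94 to -0.71. A dimmer probe of TIP2;3 fell in wild type, at -1.0 (adjusted p = 0.0469), where the brightest had -0.024. In 35S:YFP-AFL1 the other probes changed more than the brightest in 8 of the 14 genes.

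**Figure D3:**
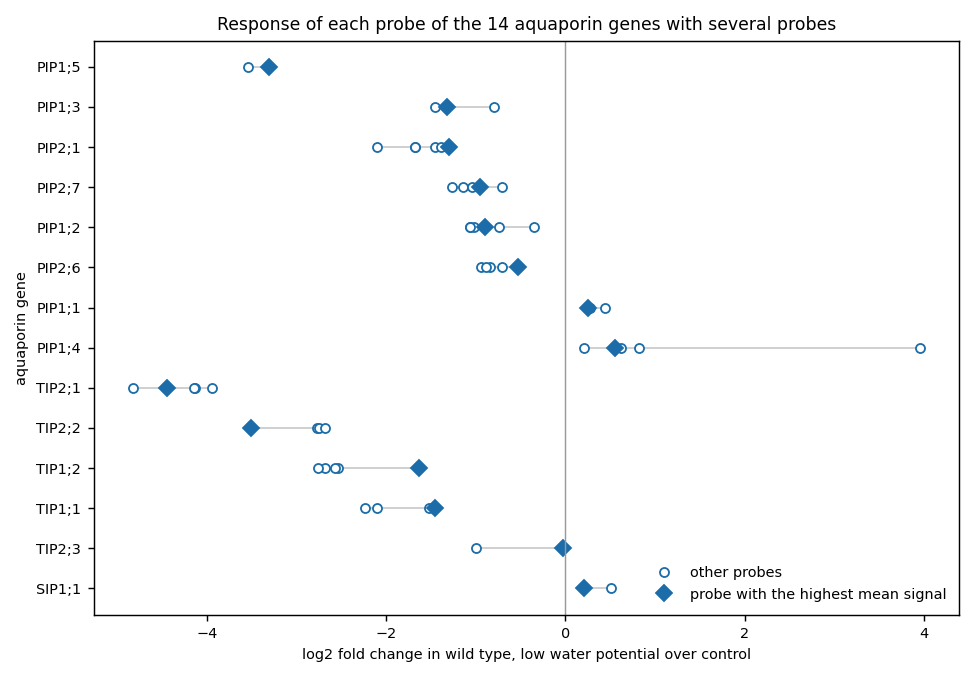
Log2 fold change in wild type (horizontal axis) of each kept probe of the 14 aquaporin genes with several probes. The diamond is the probe with the highest mean signal, which stands for the gene, and circles are the others. The probes of a gene lie on the same side of 0, and the dimmest of PIP1;4 lies apart at 3.95.

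The genotypes were then compared within each treatment. Under control conditions 0 of the 29 genes were called by limma, where 0.0218% of all tested genes were called, 0.0109% higher and 0.0109% lower. At an unadjusted p under 0.05 from limma there were 6 of the 29, and 2065 of all 18307 tested genes. Of these 6, 4 had the lower value in 35S:YFP-AFL1, among them TIP2;3 at -0.53 and TIP4;1, which has only a bound there, and 2 had the higher value, NIP6;1 at 0.71 and PIP2;8 at 0.31. Without wild-type control replicate 1, the array on the 35S:YFP-AFL1 slide, 2 aquaporin genes were called, TIP4;1 lower and NIP6;1 higher, and the number of all genes called went from 4 to 536.

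At low water potential 3 of the 29 were called, all lower in 35S:YFP-AFL1, where 2.17% of all tested genes were called, 1.69% lower and 0.475% higher. TIP4;1, among them, passed the signal filter through wild type alone, so this count partly reflects the filter. NIP1;1 (AT4G19030), an arsenite-permeable channel of roots, read -2.0, -1.49, -1.53 and -2.15 in wild-type control and -1.93, -0.44, -0.22 and -1.39 under stress. In 35S:YFP-AFL1 it read -2.83, -2.96 and -2.54 and then -2.87, -3.9 and -3.97, and under stress it was well above background on only 1 of the 3 arrays. The 35S:YFP-AFL1 values lay below all wild-type values of the same treatment, and the stressed wild-type value nearest to them was that of replicate 1, on their slide. The genotype difference under stress was -2.58 ± 0.38 (SE, adjusted p = 0.00847). The gene was not called for stress in either genotype, at 0.80 (adjusted p = 0.0649) and -0.80 (adjusted p = 0.103), although wild type was called higher in 9 of 30 alternative settings, slide and scan day as fixed blocks among them, with values of opposite sign whose difference was -1.6 (unadjusted p = 0.0113, adjusted p = 0.361).

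TIP4;1 was lower in stressed 35S:YFP-AFL1, with a difference of -1.69 ± 0.31 (SE, adjusted p = 0.0198) and the arrays of the genotypes apart, although only 1 of the 3 stressed 35S:YFP-AFL1 arrays was well above background. The gene passed the signal filter through wild type alone, where it is high. That filter favours a lower value in 35S:YFP-AFL1, so the call and the separation are not independent of it. Its control difference is bounded at 1.46-fold or more, as the probe was not well above background on any 35S:YFP-AFL1 control array, and was not called (-1.25 (adjusted p = 0.145)). PIP2;4 read -1.85, -0.79, -1.01 and -1.78 in wild-type control and -2.53, -2.06, -1.68 and -2.3 under stress, and -2.14, -2.06 and -2.5 and -3.0, -3.3 and -3.62 in 35S:YFP-AFL1. Stressed arrays of the 2 genotypes did not overlap, and the difference was -1.17 ± 0.28 (SE, adjusted p = 0.0493).

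Across the alternative settings the call held in 22 of 29 for NIP1;1, in 20 of 29 for TIP4;1 and in 7 of 30 for PIP2;4. All 3 calls rest on wild-type arrays of other slides. With the slide as a fixed block, which here compares the 3 35S:YFP-AFL1 arrays with wild-type replicate 1 of slide 5, the differences were -1.65 for the NIP gene, -1.35 for the TIP gene and -0.78 for the PIP gene, with adjusted p of 0.164, 0.129 and 0.265. Within slides 4 and 5 alone the adjusted p were 0.115, 0.126 and 0.189. Without stressed wild-type replicate 1, 11 of the 29 genes were called, 8 lower and 3 higher in 35S:YFP-AFL1, and the 3 higher were PIP1;4, PIP2;5 and the alpha-TIP gene, while the count over all genes went from 397 to 3523. Without stressed 35S:YFP-AFL1 replicate 2 or 3, 0 were called, and without stressed wild-type replicate 3, 1 was called.

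All 3 genes are known from roots, and root markers were compared beside them. Of 20 root markers 15 were tested, while WOX5, PLT1, PLT2, NRT2.1 and IRT1 were not. At low water potential 5 of the 15 were lower in 35S:YFP-AFL1 and 0 higher, where 1.69% of all tested genes were lower and 0.475% higher. Their median was -0.51, or -0.38 with the 2 genes not well above background at their bound. The endodermal gene CASP5, not well above background on any 35S:YFP-AFL1 array, was at least 2.17-fold lower (adjusted p = 0.0484). For EXPA18, likewise not above that mark on any 35S:YFP-AFL1 array, the bound was 1.3-fold lower (adjusted p = 0.0121). Both are among the 5 and entered the test through wild type alone, where they are high, so the 5 of 15 partly reflects the filter. Another 5 markers had positive values, the highest being another Casparian strip gene, CASP2, at 0.67 (adjusted p = 0.0724). In control 0 were called (median -0.86, or -0.55 with those genes at their bound). The mean log2 signal of the 15 on an array ran from -1.95 to -1.22 in stressed wild type and from -2.54 to -2.10 in stressed 35S:YFP-AFL1, and from -1.56 to -1.13 and -2.26 to -1.76 in control. The genotypes did not overlap in either treatment. That mean holds CASP5 and EXPA18, the genes given a bound above, at their read signal. Both passed the filter through wild type alone, as did EXPA7, well above background on 1 of 3 35S:YFP-AFL1 arrays in each treatment. Whether the means stay apart with such genes at a bound or left out was not tested. Their summed level overlapped under stress, with 5.82 to 7.88 in wild type and 5.85 to 6.57 in 35S:YFP-AFL1. In control it ran from 7.38 to 9.57 and from 5.94 to 7.23. Their part in the lower values of the 3 aquaporin genes was not tested.

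**Figure D4:**
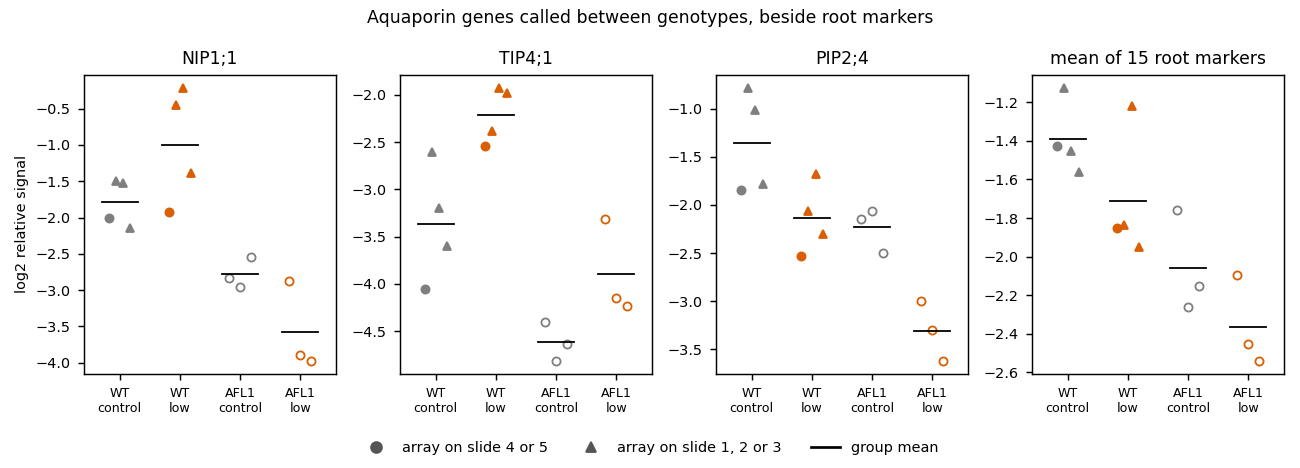
Log2 relative signal (vertical axes) of NIP1;1, TIP4;1 and PIP2;4 and the mean of 15 root markers on the 14 arrays in 4 groups. Filled symbols are wild type, circles are arrays on slides 4 and 5, triangles arrays on slides 1 to 3, lines are group means. Stressed 35S:YFP-AFL1 arrays lie below stressed wild-type arrays in each panel, and for the 3 aquaporin genes the stressed wild-type array on slide 5 is the lowest of its group. The mean of the root markers holds those not well above background at their read signal.

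The difference of the stress responses between genotypes was called for 0 of the 29 genes by limma (0% of all tested genes, with 3 aquaporin genes and 1782 of all genes at an unadjusted p under 0.05). Those 3 were NIP1;1, TIP1;2 and PIP2;1, each with the lower response in 35S:YFP-AFL1. The response of TIP1;2 differed by -1.08 (95% interval -1.89 to -0.27, adjusted p = 0.368) and that of PIP2;1 by -0.88 (95% interval -1.49 to -0.28, adjusted p = 0.333). Without stressed wild-type replicate 1, 2 were called, the first 2 of these, while the count over all genes went from 0 to 754. For the delta-TIP gene the interval was -1.23 to 0.43 and for PIP1;5 -0.69 to 0.066, so differences of up to those sizes are not excluded by these arrays.

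Genes whose proteins act on PIPs were called at shares near those of all tested genes (30.7% higher and 33.4% lower in wild type). All 14 on the list were tested, and in wild type 5 rose and 6 fell (median 0.0021), and in 35S:YFP-AFL1 5 rose and 5 fell (median -0.24). The highest was TSPO, a stress-induced membrane protein that binds PIP2;7, at 9.15 and 8.57, and the lowest was RMA2, a membrane-anchored ubiquitin ligase, at -2.04 and -3.09. TSPO was well above background on only 1 of 4 wild-type and 1 of 3 35S:YFP-AFL1 control arrays, so the exact size of its rise is uncertain. Of 8 proton pump genes of the plasma membrane and tonoplast, which set up the gradients across the membranes where PIPs and TIPs sit, 4 rose and 3 fell in each genotype, to be read beside the same shares. In wild type these ran from AHA11 at -2.17 to AHA3 at 1.91, both plasma membrane proton ATPases. No member of either list was called between genotypes in either treatment.

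The 6 genes that were not tested are NIP2;1, a lactic acid channel, NIP3;1, an arsenite channel, and TIP1;3, NIP7;1 and the neighbours NIP4;1 and NIP4;2, which are known from pollen or anthers. Of these, 4 were well above background on 0 of 14 arrays. NIP3;1 was so on 1 array, stressed wild-type replicate 2, with a value of -3.43, and NIP4;2 on 1 array, stressed wild-type replicate 1, at -2.76. These genes were not detectable in most samples, which is not to say that they were silent.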

How the data were processed

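Total RNA of 14 seedling samples was hybridised to single-colour Agilent arrays. Per the file headers, the authors extracted the spot intensities with Agilent Feature Extraction 10.7.1.1. Its processed signal is linear and background-subtracted within each array, and nothing was normalized between arrays. The deposited table of all samples held the same intensities, within a relative difference of 0.000599. From these deposited intensities, log2 of the processed signal minus log2 of the array's 75th percentile over spots that were not controls was computed here. Outlier spots were dropped if a probe had another spot. Probe accessions were matched without version to the TAIR10.1 gene table, which assigned probes to genes and gave names and neighbours. Of 43603 probes, 34358 had a gene. Probes had to be well above background on 3 or more arrays of some group, and the brightest by mean signal represented its gene. That filter kept 29 of 35 aquaporin genes, including any that passed through the group where they were high, such as TIP4;1, which passed through wild type alone.

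The comparisons used limma 3.58.1 under R 4.3.3, in a single fit of 4 group means with 10 residual degrees of freedom and Benjamini-Hochberg adjustment over 18307 genes. Simulated data with known changes were used to test the fit. Where a probe was below that background mark on all arrays of a group, its fold is a bound: the brighter group's mean against the dim group's mean of, per array, the higher of the probe's own signal and the dimmest signal that passed the mark. The members, lists and tests were chosen with earlier results of these data known. Named with array values were members called higher under stress, the 3 called members of each subfamily with the lowest wild-type fold change, members called between genotypes, and members whose call differed between stress responses that differed by more than 1; from each list, the highest and lowest called gene, with AFL1 and ABI3. Same-numbered replicates of different groups mostly deviated together little (19 pairs, median correlation 0.045, 6 over 0.1). The 54 differently numbered pairs had a median of -0.026, with 9 over 0.1. The highest correlation, 0.397, was that of replicate 1 of wild-type control and of stressed wild type. Numbers were not used as pairs. Slide and scan day come from the file headers. Alternatives covered normalization, background, filters, probe choice, slide, scan day, replicate number, samples in the fit and each array left out; the normexp alternative, with an offset of 50, used median spot signals, as the mean signals planned for it were not used here. The number of arrays limits the precision.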

Additional observations from a re-analysis of the deposited data

Results flagged for a closer look

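TIP5;1, a gene not called in the 5 comparisons and called only with the slide as a fixed block in wild type, had 2 arrays far from the rest of their groups. In wild-type control the lowest array, replicate 4, read -1.80, against -0.35 for the nearest of the others, a gap of 0.867 of the group's range. In stressed wild type the highest array, replicate 1, read 0.086, against -0.72 for the nearest, a gap of 0.875 of the range. Of 58 groups of 4 wild-type arrays examined these were 2, and chance alone marks about 1 in 20.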

How the results depend on the processing

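The number of aquaporin genes that rose was 3 in wild type, and became 6 with median centring and with quantile normalization, 5 with normexp, 5 with the mean of all probes, 7 with the slide as a fixed block and 5 within slides 4 and 5; leaving out single arrays gave 3 to 5. In 35S:YFP-AFL1 it was 5, and became 9 with median centring, 3 with the slide as a fixed or a random block, and 8 both with the compared groups alone and within slides 4 and 5; leaving out single arrays gave 4 to 6. Median centring moved the median change of all genes from -0.032 to 0.13 in wild type and from -0.036 to 0.17 in 35S:YFP-AFL1, and all genes called higher and lower from 5627 and 6110 to 6786 and 5135 in wild type; in 35S:YFP-AFL1 they went from 5502 and 6090 to 6993 and 5035. With the slide as a fixed block 13 genes were called in 35S:YFP-AFL1, 10 of them lower. Leaving out single arrays gave 17 to 20 calls in wild type, 14 to 16 of them lower, and 19 to 23 in 35S:YFP-AFL1, 15 to 18 of them lower.

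The genotype calls under stress (3) became 5 with normexp, 0 under the filter for all 14 arrays, which leaves NIP1;1 and TIP4;1 untested, and 0 with the slide as a fixed or random block, within scan day 2, with the compared groups alone and within slides 4 and 5; they became 11 without wild-type replicate 1 of both treatments, and leaving out single arrays gave 0 to 11. In control (0) that omission gave 3, and single arrays 0 to 2. For the difference of responses (0) it gave 2, and single arrays 0 to 2. Over all 18307 tested genes, leaving out both of these wild-type arrays gave 4148 calls under stress, 1399 in control and 1173 for the difference of responses. With all arrays these counts were 397, 4 and 0. The causes were not tested. All genes called between genotypes went from 397 under stress to 62 and 47 with the slide as a fixed and a random block and to 1 within scan day 2, and from 4 in control to 34 with the fixed block. Replicate numbers were not used as pairs in the main fit. With the replicate block 19 aquaporin genes were called in wild type, 22 in 35S:YFP-AFL1, 0 between genotypes in control and 2 under stress (NIP1;1, which was among the 3, and NIP5;1), and 0 for the difference of responses. No call changed direction under the alternatives run, and 13 of the 18 wild-type calls and 12 of the 22 35S:YFP-AFL1 calls passed in each of them where the gene was tested. The slide settings within slides 4 and 5, the omission of both replicates 1 and the reading of each probe were added after the data were seen.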
